A study of Arabidopsis thaliana with 30 samples.

Results

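The genes described here were transiently low in the light: in dark-grown wild-type Arabidopsis thaliana seedlings their transcripts were low after 2 h of white light and back toward the dark level after 4 h. They were chosen from the normalized counts of the wild type. Genes were kept when the lower of their mean dark and mean 4-h levels was at least 100 normalized counts, which left 11671 of the 23334 genes in the table. The score was the log2 ratio of that lower mean to the 2-h mean, after 10 was added to each, and the 100 genes of highest score were taken. The low level at 2 h and the return at 4 h in the wild type are thus the way in which the genes were selected, and those values are given as a description, without a test. The mutant libraries and the heat shock libraries were not used in the selection, and the tests below are on them.

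The wild type was Col-0. The mutant, bdr1,2,3, carried the T-DNA insertion alleles bdr1-1, bdr2-1 and bdr3-1 in the 3 genes for the BORDER (BDR) proteins, which are putative negative transcription elongation factors. In the photomorphogenesis experiment, 5-day-old seedlings of both genotypes grown on plates in the dark at 21 °C were harvested in the dark, or after 2 or 4 h of white light (18 libraries). In the heat shock experiment, seedlings of both genotypes were grown for 12 days at 12 °C in long days and harvested there, here called cold, or after a further 4 h at 27 °C, here called heat (12 libraries). Each of the 10 groups had 3 libraries, each from a separate plate of whole seedlings, so p-values measure the spread between plates. Whole seedlings were extracted, so fewer cells of a type and less RNA per cell cannot be told apart. The experiments were normalized separately, and levels are compared only within one of them. The time of day of harvest is not given in the sources used here.

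Seedlings kept in the dark live on stored reserves, and when sugar runs short plants switch on a set of starvation genes. These encode asparagine synthetase, which parks nitrogen in a carbon-poor amino acid, enzymes that break down branched-chain amino acids, proline and other amino acids as respiratory fuel, and glycosidases that release sugars from polymers. Several were first isolated as dark-inducible (DIN) genes. Sugar and light are both known to lower their transcripts, and the kinase SnRK1 and bZIP transcription factors are known to raise them when energy is low. Dark-grown seedlings also elongate the hypocotyl and keep an apical hook, which is shaped by ethylene, brassinosteroid and auxin and by enzymes that loosen the cell wall.

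Photomorphogenesis libraries held 7517174 to 22888978 counts and heat shock libraries 6823975 to 22458726. The labels were checked on the targeted genes. BDR1 had group means of 722.7 to 1257 normalized counts in the wild type and of 29.18 to 33.59 in bdr1,2,3. BDR2 had 260.8 in wild-type dark libraries against 179.7 in the mutant's, and BDR3 did not separate the genotypes in the cold (77.42 in the wild type, 75.23 in the mutant). Light-induced genes such as ELIP1 and HY5 and heat-induced genes such as HSP101 stood higher after their treatments. Some transcripts outside the 100 genes moved with the genotype. The summed level of 12 seed storage and oil body genes was 66 to 190 normalized counts per library in the wild type and 249 to 337 in the mutant in the cold, and 42 to 132 against 417 to 489 in the heat. The summed level of 21 photosynthesis genes was 1037129 to 1048404 in the wild type and 1240269 to 1259562 in the mutant in the cold, and 1113821 to 1268789 against 1322169 to 1407093 in the heat. Pollen and flower markers summed to 22 to 90 normalized counts per library in the heat shock experiment and 41 to 107 in the photomorphogenesis one, and 16 root markers to 634 to 886 in heat shock libraries.

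Scores of the 100 genes ran from 0.975 to 4.133 with a median of 1.28. The 10 highest belonged to MIOX2 (4.13), ASN1 (3.34), SEN1 (3.02), THA1 (2.85), AT2G17880 (2.70), DIN10 (2.69), STY46 (2.39), ERD5 (2.11), BCAT-2 (2.11) and ATL8 (2.08). The border of the list was not sharp. The last 5 genes inside were AT2G32880 (0.987), AT5G05965 (0.985), BAS1 (0.977), OEP16-1 (0.977) and AT3G10720 (0.975), and the first 5 outside were OZF1 (0.975), BSH (0.973), AKINBETA1 (0.969), AT3G18320 (0.967) and PMT6 (0.967). In the wild type, the 2-h level was 2.204 to 50.4% of the dark level, with a median of 25%. The 4-h level was 6.089 to 177.8% of the dark level, with a median of 73.2%. It was above the dark level for 25 genes and under 50% of it for 27, so the genes shared the dip at 2 h but not the extent of the return.

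**Figure D1:**
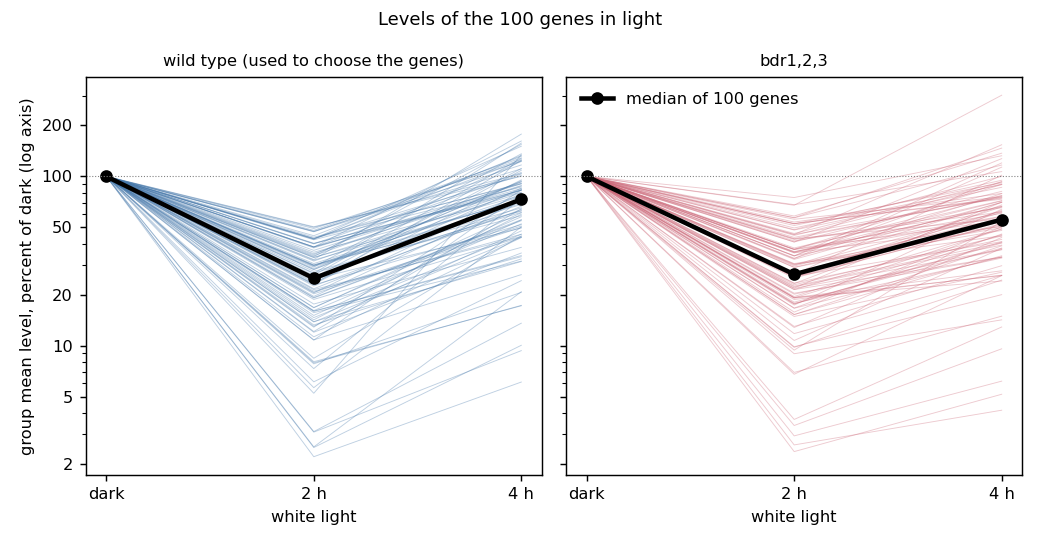
Group mean level of each of the 100 genes before light and at 2 and 4 h (horizontal axis), as a percent of the genotype's own dark mean on a log axis, with the wild type on the left and bdr1,2,3 on the right. Thin lines are single genes and the black line is their median, which was 25% at 2 h and 73.2% at 4 h in the wild type, and 26.4 and 55.5% in the mutant.

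To show what the upstream sequence of such genes holds, 200 bases before the annotated start are printed for 6 of them, 5′ to 3′ on the gene's strand, from the TAIR10.1 reference. Capitals mark the sugar-repressive element TTATCC, the related TATCCA, the G-box CACGTG and the ABA response element core ACGTGG, on either strand, and TATCCA and TTATCC overlap in TTATCCA. The 6 were picked by hand: ASN1 (asparagine synthetase), SEN1 (also DIN1), AT1G21400 (branched-chain amino acid breakdown) and BT2 (a BTB protein) as genes known for their response to sugar or dark, ACHT5 as a gene with many matches and MIOX2 as the gene of highest score. They lie at chr3:17441432-17441631 (ASN1, minus strand), chr4:16944678-16944877 (SEN1, plus strand), chr1:7493013-7493212 (AT1G21400, plus strand), chr3:17910739-17910938 (BT2, minus strand), chr5:24707245-24707444 (ACHT5, plus strand) and chr2:8533780-8533979 (MIOX2, minus strand).
ASN1: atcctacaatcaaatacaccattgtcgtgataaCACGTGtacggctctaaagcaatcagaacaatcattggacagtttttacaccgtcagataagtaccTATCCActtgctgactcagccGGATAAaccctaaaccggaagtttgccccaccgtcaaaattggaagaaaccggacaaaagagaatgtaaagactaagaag
SEN1: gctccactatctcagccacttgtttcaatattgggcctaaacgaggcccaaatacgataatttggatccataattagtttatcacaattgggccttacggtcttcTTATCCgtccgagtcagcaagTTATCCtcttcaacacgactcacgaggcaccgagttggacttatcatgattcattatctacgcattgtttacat
AT1G21400: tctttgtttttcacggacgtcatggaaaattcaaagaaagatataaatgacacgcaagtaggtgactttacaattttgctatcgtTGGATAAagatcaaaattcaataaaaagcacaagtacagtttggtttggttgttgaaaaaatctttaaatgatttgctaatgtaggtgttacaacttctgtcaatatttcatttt
BT2: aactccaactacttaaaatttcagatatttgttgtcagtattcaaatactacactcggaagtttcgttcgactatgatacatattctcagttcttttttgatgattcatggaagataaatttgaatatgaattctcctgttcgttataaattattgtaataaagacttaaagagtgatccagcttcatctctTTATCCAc
ACHT5: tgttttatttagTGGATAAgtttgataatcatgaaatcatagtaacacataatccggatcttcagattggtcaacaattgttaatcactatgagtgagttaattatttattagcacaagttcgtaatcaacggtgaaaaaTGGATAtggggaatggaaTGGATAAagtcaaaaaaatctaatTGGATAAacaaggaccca
MIOX2: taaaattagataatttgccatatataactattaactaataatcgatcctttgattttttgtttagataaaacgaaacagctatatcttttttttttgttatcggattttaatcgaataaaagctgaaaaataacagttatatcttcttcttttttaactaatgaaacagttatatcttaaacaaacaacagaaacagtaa
MIOX2, with the highest score, has none of these letters in this window, while ACHT5 has several. A match is a description of letters and not of a bound site.

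Over 500 bases upstream, TTATCC was present on either strand in 40% of the 100 genes, in 24.5% of genes at the level minimum and in 22.4% of all protein-coding genes. TATCCA was present in 39%, 27.0% and 25.5%, and the I-box GATAAG, which overlaps the reverse complement of TTATCC where GGATAAG occurs, in 35%, 23.1% and 22.4%. The evening element AAAATATCT was present in 10%, 4.63% and 4.44%, the rapid stress response element core CGCGTT in 10%, 4.99% and 4.61%, and ACGTGG in 21%, 13.5% and 12.6%. The G-box CACGTG was in 9% beside 10.5% at the level minimum, the W-box forms TTGACC and TTGACT in 25 and 28% beside 20.4 and 30.4%, the auxin response element TGTCTC in 21% beside 21.1%, and TGGGCC in 15% beside 22.7%. These shares carry no test, and TATCCA and TTATCC were added to the search after the genes were known.

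MIOX2 had the highest score. It encodes a myo-inositol oxygenase, which opens myo-inositol to glucuronate, a precursor of cell wall sugars. In the wild type it had 2339, 2008 and 1640 normalized counts in the 3 dark libraries, 112, 91.9 and 109 at 2 h, and 2721, 2981 and 2331 at 4 h. In bdr1,2,3 it had 2236, 2758 and 2166 in the dark, 223, 226 and 224 at 2 h, and 1318, 1289 and 1273 at 4 h. The mutant libraries thus dipped and came back without overlap between time points. They lay above every wild-type library at 2 h and below every one at 4 h. The wild-type values chose the gene, so they are not an even standard for the mutant's, and this difference was not tested. In the mutant MIOX2 fell by 3.41 on the log2 scale from the dark to 2 h (SE 0.13, adjusted p = 1.08e-14, edgeR's quasi-likelihood test) and rose by 2.55 from 2 to 4 h (SE 0.13, adjusted p = 1.61e-11).

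The mutant repeated the dip in nearly all of the genes. From the dark to 2 h, 99 of the 100 fell in bdr1,2,3 at an adjusted p under 0.05, where 33.8% of all 19521 genes tested were called lower. The median log2 change of the 100 genes was -1.92 beside -0.01 for all genes tested, with a range from -5.41 to -0.42, and 88 fell at least 2-fold. From 2 to 4 h all 100 rose, beside 22.5% of all genes tested, with a median of 1.04 and a range of 0.35 to 2.55, and 54 rose at least 2-fold. A fall at 2 h followed by a rise at 4 h was called for 99 of the 100 genes and for 7.32% of all genes tested. Among tested genes that met the level minimum of the selection, these shares were 39.2, 24.4 and 9.9%. When the same score was computed from the mutant libraries, it was above 0 for all 100 genes, against 24.9% of the genes at the level minimum, with a median of 0.95, and 67 of the 100 were also in the mutant's own top 100. Root markers, 15 genes, moved in the same direction: they summed to 5445 to 5966 normalized counts per library in mutant dark samples, 3263 to 3544 at 2 h and 4156 to 4607 at 4 h, and to 4234 to 4442, 2817 to 2934 and 3666 to 4174 in wild-type samples. Their part in the dip and in the genotype values was not tested.

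The exception at 2 h was CYP79B3, a cytochrome P450 that converts tryptophan to indole-3-acetaldoxime. In bdr1,2,3 it had 115, 118 and 148 normalized counts in the dark and 75.5, 81.0 and 100.6 at 2 h. These groups did not overlap, and the log2 change was -0.56 (SE 0.27, adjusted p = 0.076). At 4 h it had 383, 389 and 377, a rise of 2.19 over 2 h (SE 0.25, adjusted p = 5.7e-06) and of 1.63 over the dark (SE 0.23, adjusted p = 1.75e-05). CYP79B3 was therefore among the few genes that stood above their dark level after 4 h in the mutant.

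Most of the genes had not regained the dark level in the mutant by 4 h. Compared with the dark, 80 of the 100 were called lower at 4 h in bdr1,2,3, beside 34.1% of all genes tested, and 7 were called higher, beside 35.9%. The median log2 change was -0.81. The 7 higher genes were CYP79B3, GATL3 (0.62), OEP16-1 (0.57), AT1G78830 (0.49), UVR3 (0.44), AT5G22920 (0.37) and AT2G30600 (0.29). The mutant's 4-h level was 4.15 to 301.8% of its dark level with a median of 55.5%, above the dark level for 12 genes and under 50% of it for 42. Since the wild-type libraries chose the genes, the genotypes are set side by side here without a test. The 4-h share of the dark level was lower in the mutant than in the wild type for 83 of the 100 genes and for 48.1% of the genes at the level minimum. The log2 ratio of the mutant mean to the wild-type mean had a median of 0.04 in the dark, 0.23 at 2 h and -0.30 at 4 h over the 100 genes. It was above 0 for 55, 77 and 16 genes at these times, beside 45.2, 49.7 and 46.1% of the genes at the level minimum. Because the selection used the wild-type libraries alone, their values are not an even standard for the mutant's. The 21 photosynthesis genes also differed at 4 h, with 583805 to 632772 summed normalized counts per library in the wild type and 428069 to 520671 in the mutant, and their part in the difference was not tested.

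**Figure D2:**
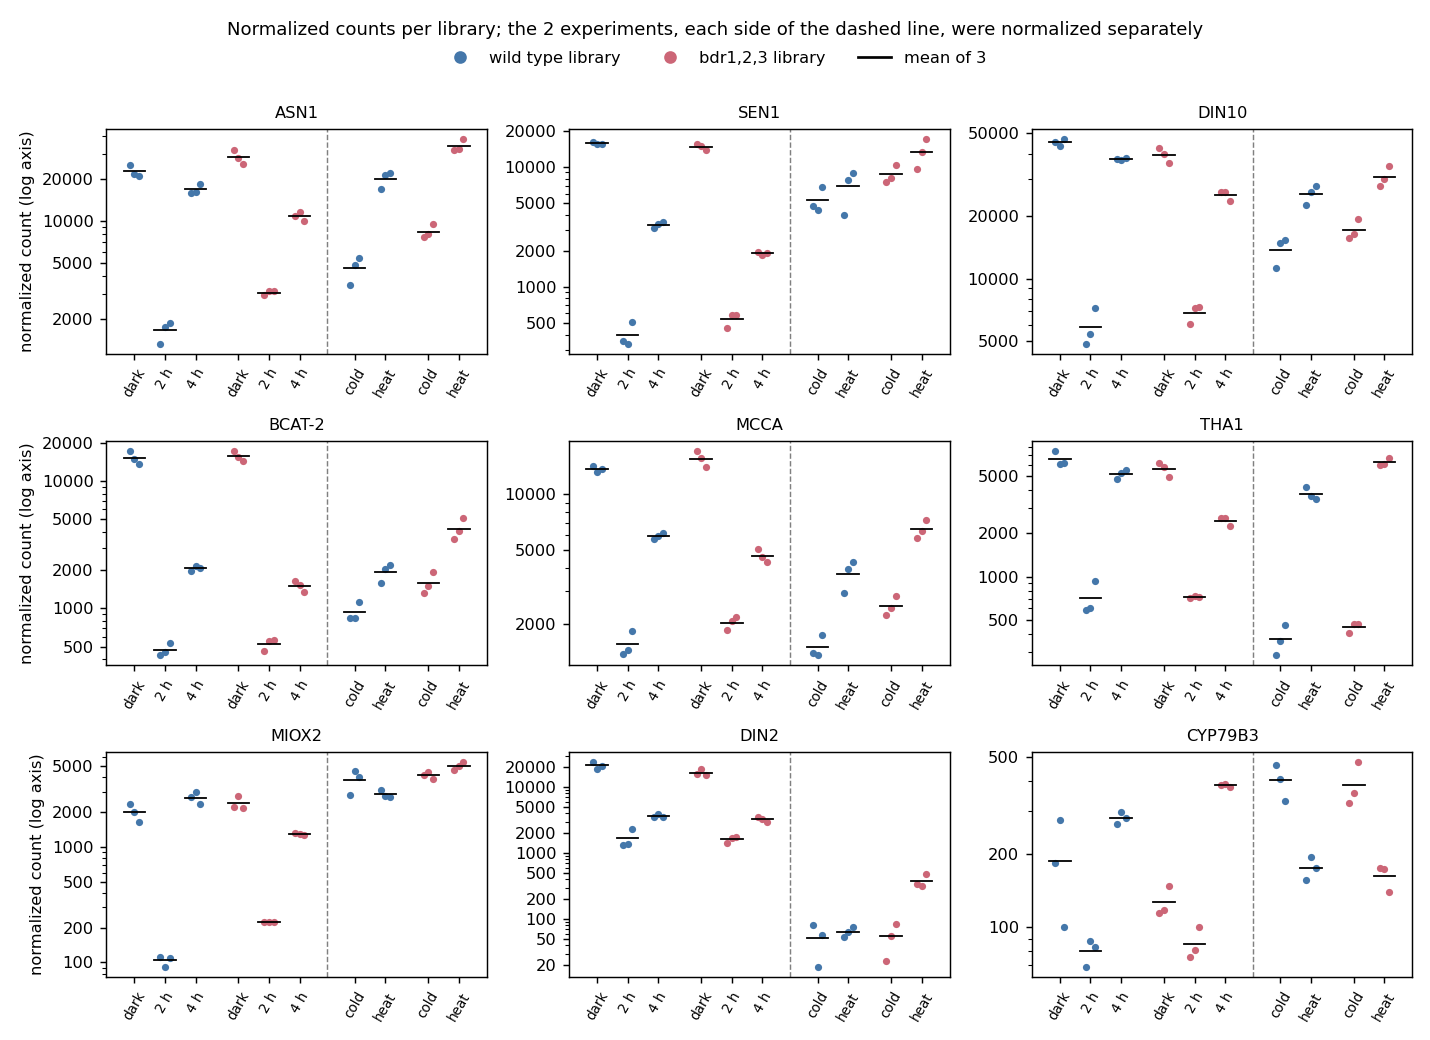
Normalized counts on log axes of ASN1, SEN1, DIN10, BCAT-2, MCCA, THA1, MIOX2, DIN2 and CYP79B3 in each library, as blue points for the wild type and red points for bdr1,2,3, with a bar at the mean of each group of 3 and the photomorphogenesis experiment left of the dashed line. The 2-h libraries sit below the dark and 4-h libraries of their genotype, and BCAT-2 and DIN2 regain less of their dark level than DIN10 does.

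In the heat shock experiment, none of whose libraries entered the selection, the genes had no common direction in response to heat but were called higher in the mutant more often than lower. In the wild type 42 of the 100 genes were called higher in the heat than in the cold and 21 lower, beside 29.3 and 28.5% of the 19473 genes tested, with a median log2 change of 0.24. In bdr1,2,3 the numbers were 50 higher and 19 lower, beside 29.4 and 31.2% of all genes tested, with a median of 0.38. Among tested genes at the level minimum, 33.6% were called higher and 28.2% lower in the wild type, and 35.2 and 29.6% in the mutant. In both genotypes 36 genes were higher and 16 lower, and the share of all genes tested with both calls is not given here.

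Between the genotypes in the cold, 21 of the 100 genes were called higher in bdr1,2,3 than in the wild type and 1 was called lower, beside 4.57 and 6.36% of all genes tested. In the heat 40 were called higher and 1 lower, beside 8.53 and 10.9% of all genes tested. The median log2 difference was 0.24 for the cold samples and 0.32 for the heat samples, with 76 and 80 of the 100 genes above 0. By the log2 ratio of group means, 76 and 81 of the 100 were above 0. The shares among genes at the level minimum were 54.4 and 58.6% by that ratio. The 15 genes called higher in both conditions compare with 2.31% of all genes tested. Differences were mostly under 2-fold, and 7 genes were at least 2-fold higher in the heat. Among tested genes at the level minimum, 4.87% were called higher at 12 °C and 10.2% after the shift. The count in the cold depended on single libraries: it was 12 without the wild-type cold library of replicate 1, and 32 when both heat libraries numbered 1 were left out or when replicate number was a block. The summed seed storage and photosynthesis transcripts given above were higher in the mutant in the same libraries. Of 11 tested seed storage genes, 9 were called higher in the heat (median log2 difference 2.38) and 5 in the cold (1.31). Of 21 photosynthesis genes, 6 were called higher and 1 lower in the heat (0.06), and 8 higher and 0 lower in the cold (0.18). The part of these transcripts in the difference was not tested. The gene called lower in the cold was AT5G08350 (log2 difference -0.40, SE 0.13, adjusted p = 0.0495), at 178, 222 and 227 normalized counts in the wild type and 151, 163 and 165 in the mutant. Its call was lost without any one mutant cold library or without replicate 2 or 3 of the wild-type cold, with differences of -0.32 to -0.42.

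**Figure D3:**
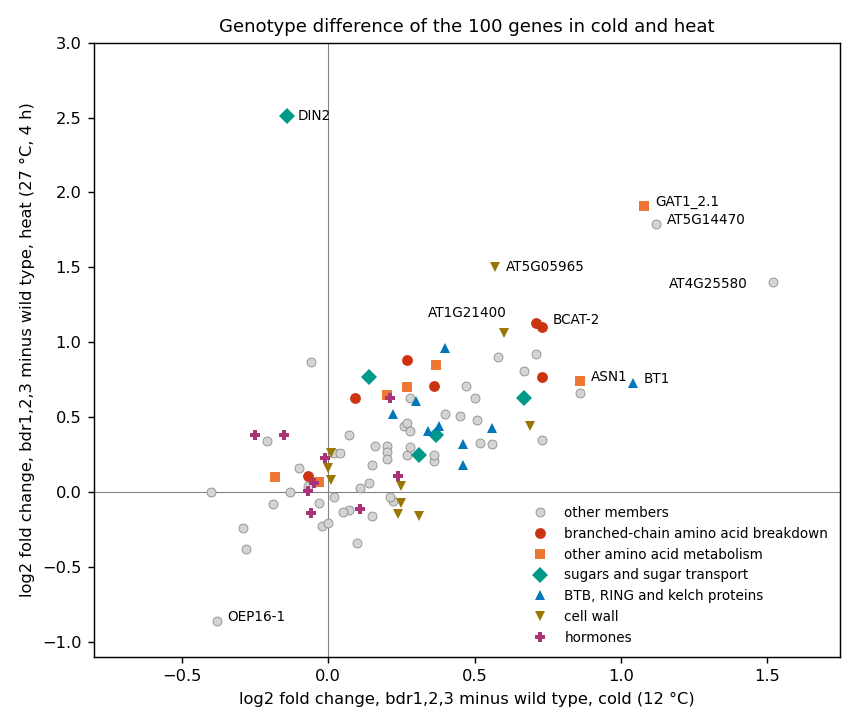
The log2 difference between bdr1,2,3 and the wild type for each of the 100 genes in the cold (horizontal axis) and in the heat (vertical axis), with the functional groups as colours and shapes. Most points lie above 0 on both axes (76 genes in the cold, 80 in the heat), and DIN2, GAT1_2.1 and AT5G14470 stand highest in the heat. Of genes at the level minimum, 54.4% in the cold and 58.6% in the heat were above 0 by the ratio of group means.

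The annotation gives the genes a range of functions, and 62 of them were sorted by hand, after the genes were known, into 9 groups of 3 to 10 genes, one of them a mixed group of thioredoxins, other plastid proteins and a photolyase. The group of branched-chain amino acid breakdown held 7 genes. BCAT-2 encodes a transaminase of the kind that starts the pathway. AT1G21400, DIN4 and BCE2 encode subunits of the branched-chain keto acid dehydrogenase. MCCA and MCCB encode the subunits of methylcrotonyl-CoA carboxylase in leucine breakdown. ALDH6B2 encodes a methylmalonate-semialdehyde dehydrogenase that acts in valine breakdown. The median 2-h level of the group was 13.8% of the dark level in wild-type and 15.2% in mutant seedlings, and the median 4-h level 43.6 and 36.8%. All 7 fell at 2 h in bdr1,2,3 (median log2 change -2.71), all 7 rose again from 2 to 4 h (1.22), and all 7 were still below the dark level at 4 h (-1.41).

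BCAT-2 shows the partial return. It had 17286, 14802 and 13765 normalized counts in wild-type dark libraries, 430, 452 and 540 at 2 h, and 1970, 2175 and 2074 at 4 h. Mutant libraries had 17269, 15417 and 14415 in the dark, 461, 558 and 569 at 2 h, and 1638, 1531 and 1338 at 4 h. All light libraries lay far below all dark ones, and in the mutant the fall was 4.89 on the log2 scale (SE 0.12, adjusted p = 1.61e-20). In the heat shock experiment BCAT-2 had 847, 841 and 1127 in wild-type cold libraries and 1315, 1499 and 1918 in mutant cold libraries. In the heat it had 1586, 2026 and 2200 in the wild type and 3504, 4030 and 5148 in the mutant. The groups did not overlap between genotypes in either condition. BCAT-2 rose with heat in the wild type by 1.04 (SE 0.19, adjusted p = 0.00057) and in the mutant by 1.40 (SE 0.19, adjusted p = 4.37e-05). It was higher in the mutant by 0.73 in the cold (SE 0.19, adjusted p = 0.028) and by 1.1 in the heat (SE 0.18, adjusted p = 0.00139), and the cold difference missed the threshold without replicate 2 or 3 of the mutant cold (0.77 and 0.57) or replicate 1 or 2 of the wild-type cold (0.66 for both).

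The other genes of the pathway did much the same in the heat. All 7 rose with heat in bdr1,2,3 and 6 in the wild type, and 6 were higher in the mutant than in the wild type in the heat, with DIN4 the exception (log2 difference 0.11, adjusted p = 0.556). MCCB had 668, 788 and 783 normalized counts in wild-type cold libraries and 1776, 2082 and 2182 in the heat. Mutant cold libraries had 887, 798 and 1024 and mutant heat libraries 3773, 3314 and 4262. The mutant libraries were above all wild-type libraries in both conditions, and the difference was called in the heat (0.88, SE 0.11, adjusted p = 1.74e-05) and not in the cold (0.27, adjusted p = 0.144). AT1G21400 was higher in the mutant in both conditions, by 0.71 in the cold (SE 0.16, adjusted p = 0.0117) and 1.13 in the heat (SE 0.16, adjusted p = 0.000229), and so was MCCA, by 0.73 (SE 0.14, adjusted p = 0.00398) and 0.77 (SE 0.14, adjusted p = 0.00151). ALDH6B2 differed between genotypes in direction. It had 2587, 2443 and 2714 in wild-type cold libraries and 1952, 2111 and 2307 in the heat, a change of -0.29 on the log2 scale (SE 0.085, adjusted p = 0.00843). Mutant cold libraries had 2594, 2856 and 2829 and mutant heat libraries 3081, 3296 and 3677, a rise of 0.26 (SE 0.085, adjusted p = 0.0139).

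A further 7 genes act elsewhere in amino acid metabolism. ASN1 encodes asparagine synthetase, THA1 a threonine aldolase, ERD5 a proline dehydrogenase, GDH2 a glutamate dehydrogenase subunit, AT1G12050 a fumarylacetoacetase of tyrosine breakdown and AT2G31810 a small subunit of acetolactate synthase, an enzyme of branched-chain amino acid synthesis, and GAT1_2.1 is annotated as a class I glutamine amidotransferase-like protein. The median 2-h level of the group was 12.0% of the dark level in wild-type and 15.3% in mutant seedlings, and the median 4-h level 78.6 and 43.6%. All 7 fell and rose again in the mutant. ASN1 had 25127, 21657 and 20786 normalized counts in wild-type dark libraries, 1328, 1742 and 1871 at 2 h, and 15907, 16023 and 18321 at 4 h. Mutant libraries had 32182, 28171 and 25588 in the dark, 2926, 3138 and 3147 at 2 h, and 10839, 11550 and 9912 at 4 h. All 2-h libraries lay far below the others. The mutant's return at 4 h stopped short of every wild-type library, but those libraries were among the ones that chose the gene. In the mutant ASN1 fell by 3.22 (SE 0.12, adjusted p = 5.04e-17) and then rose by 1.83 (SE 0.11, adjusted p = 1.23e-11).

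Heat raised ASN1 and THA1 most among these genes. ASN1 had 3474, 4808 and 5458 normalized counts in wild-type cold libraries and 16826, 21257 and 21961 in the heat, a rise of 2.13 (SE 0.16, adjusted p = 4.46e-08). Mutant cold libraries had 7593, 8017 and 9427 and mutant heat libraries 31861, 32290 and 38158, a rise of 2.01 (SE 0.15, adjusted p = 6.55e-08). Mutant and wild-type libraries did not overlap in either condition, with ASN1 higher in the mutant by 0.86 in the cold (SE 0.15, adjusted p = 0.00164) and 0.74 in the heat (SE 0.15, adjusted p = 0.00286). THA1 had 285, 355 and 461 in wild-type cold libraries and 4173, 3637 and 3462 in the heat, and 408, 471 and 467 against 5980, 6027 and 6698 in the mutant. Its rise with heat was the largest of the 100 genes in both genotypes, 3.34 in the wild type (SE 0.14, adjusted p = 4.72e-11) and 3.78 in the mutant (SE 0.14, adjusted p = 1.31e-11). ERD5 took the other direction in the wild type, where it fell by 0.68 (SE 0.12, adjusted p = 0.000106), while in the mutant the change was -0.23 (adjusted p = 0.0977). GAT1_2.1 had 171, 134 and 165 in wild-type heat libraries and 559, 481 and 750 in the mutant, a difference of 1.91 (SE 0.29, adjusted p = 0.00116). In the heat 5 of the 7 genes were higher in the mutant than in the wild type.

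Of the 5 genes for sugar metabolism and transport, DIN10 is annotated as a raffinose synthase family protein, DIN2 encodes a beta-glucosidase, STP1 and STP14 encode sugar transporters of the plasma membrane, and MIOX2 is described above. Per kilobase of transcript, DIN10 was among the most abundant of the 100 genes in the wild-type dark, at 16450 normalized counts per kb, behind AT3G15450 (47403) and AT2G33830 (23389). DIN10 had 45566, 43461 and 46832 normalized counts in wild-type dark libraries, 4865, 5408 and 7183 at 2 h, and 37646, 37328 and 38148 at 4 h. Mutant libraries had 42723, 39916 and 35900 in the dark, 6025, 7233 and 7316 at 2 h, and 26074, 26136 and 23590 at 4 h. It recovered most of its dark level within 2 further hours in wild-type seedlings, and in the mutant it rose by 1.91 over that time (SE 0.11, adjusted p = 3.9e-12). DIN2 returned little, with 23578, 19032 and 21174 in the wild-type dark, 1338, 1381 and 2327 at 2 h, and 3560, 3953 and 3508 at 4 h.

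With heat, STP1 and DIN10 rose in both genotypes. STP1 had 2927, 3542 and 3876 normalized counts in wild-type cold libraries and 6346, 9424 and 10269 in the heat, and 4976, 5222 and 6308 against 12738, 13320 and 15045 in the mutant. It was higher in the mutant by 0.67 in the cold (SE 0.16, adjusted p = 0.0158) and 0.63 in the heat (SE 0.16, adjusted p = 0.0124). DIN2 had 80.8, 19.0 and 56.6 in wild-type cold libraries and 53.7, 63.4 and 76.9 in the heat, whereas mutant cold libraries had 23.5, 56.0 and 84.4 and mutant heat libraries 336, 314 and 478. Only the mutant heat libraries stood apart from the other groups. DIN2 was higher in the mutant in the heat by 2.51 (SE 0.40, adjusted p = 0.00186), the largest genotype difference among the 100 genes there, and the difference of the heat responses was 2.66 (SE 0.65, adjusted p = 0.113). MIOX2 fell with heat in the wild type by 0.39 (SE 0.13, adjusted p = 0.0209), changed by 0.24 in the mutant (adjusted p = 0.131) and was higher in the mutant in the heat by 0.77 (SE 0.13, adjusted p = 0.000748).

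The group of dark- and dormancy-associated genes held SEN1, a senescence-associated gene also known as DIN1, AT3G15450, annotated as an aluminium-induced protein, and AT2G33830, annotated as a dormancy/auxin-associated protein. SEN1 had 16228, 15646 and 15575 normalized counts in wild-type dark libraries, 351, 337 and 507 at 2 h, and 3070, 3336 and 3467 at 4 h. In the mutant it had 15581, 14860 and 13823 in the dark, 456, 580 and 585 at 2 h, and 1936, 1840 and 1924 at 4 h, a log2 change of -4.77 from the dark to 2 h (SE 0.12, adjusted p = 1.05e-19) and a rise of 1.84 (SE 0.11, adjusted p = 1.49e-11). Its plates varied in the heat shock experiment, with 3942, 7860 and 8837 in wild-type heat libraries and 9541, 13332 and 16999 in the mutant. The mutant libraries were all above the wild-type ones, but the difference of 0.92 missed the threshold (SE 0.33, adjusted p = 0.087). AT3G15450 was tighter, with 18130, 21416 and 23385 in wild-type heat libraries and 31762, 34453 and 38431 in the mutant, a difference of 0.71 (SE 0.098, adjusted p = 5.38e-05). In the cold it was higher by 0.47 (SE 0.098, adjusted p = 0.00364).

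The 9 genes encoding BTB, RING or kelch proteins, several of which belong to ubiquitin ligases, included BT1 and BT2, BTB/TAZ proteins, and ATL8, a RING protein. All 9 fell at 2 h in the mutant and all rose again. The return was more complete than for the amino acid genes, with a median 4-h level of 92.9% of the dark level in wild-type and 67.8% in mutant seedlings. BT2 had 6806, 6430 and 7767 normalized counts in wild-type dark libraries, 1556, 2240 and 1510 at 2 h, and 7300, 8029 and 8039 at 4 h. In the mutant it had 8672, 7782 and 6852, then 1891, 1656 and 1874, then 5627, 5308 and 4869, a log2 change of -2.1 from the dark to 2 h (SE 0.13, adjusted p = 4.23e-11) and a rise of 1.57 (SE 0.13, adjusted p = 1.7e-08). The 4-h libraries of BT2 thus overlapped the dark ones in the wild type and lay below every dark library in the mutant. In the heat shock experiment 5 of the 9 were higher in the mutant at 12 °C and 5 after the shift to 27 °C. BT1 had 1021, 1135 and 978 in wild-type cold libraries and 2623, 2169 and 1644 in mutant ones, a difference of 1.04 (SE 0.15, adjusted p = 0.000451), and BT2 had 4403, 5096 and 5126 against 8101, 8099 and 5472, a difference of 0.56 (SE 0.15, adjusted p = 0.0317).

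The 10 cell wall genes included XTH15, a xyloglucan endotransglucosylase/hydrolase, EXPA4, an expansin, XYL1 and BXL2, glycosidases of wall polysaccharides, and AT3G10720, annotated in the invertase and pectin methylesterase inhibitor superfamily. All 10 fell and rose again in the mutant, with the smallest median rise of the groups above (0.65). XTH15 had 16629, 17505 and 17862 normalized counts in wild-type dark libraries, 326, 386 and 434 at 2 h, and 1046, 1091 and 1030 at 4 h. In the mutant it had 17549, 16470 and 12718, then 431, 484 and 452, then 881, 1039 and 961, a log2 change of -5.09 from the dark to 2 h (SE 0.12, adjusted p = 4.62e-21) and a rise of 1.1 (SE 0.11, adjusted p = 1.94e-08). It is one of the 27 genes under 50% of the dark level at 4 h in the wild type, and its return was a small part of its fall. Heat raised XTH15 in the older seedlings, from 51.5, 251 and 190 to 1915, 897 and 736 in the wild type (2.92, SE 0.55, adjusted p = 0.0019) and from 306, 238 and 157 to 2714, 2206 and 2593 in the mutant (3.37, SE 0.52, adjusted p = 0.000503). The wall genes did not all share this. With heat 5 of the 10 were called higher and 1 lower in the wild type, beside 29.3 and 28.5% of all genes tested. In the mutant 4 were called higher and 2 lower, beside 29.4 and 31.2%. EXPA4 fell with heat in both genotypes, by 0.55 in the wild type (SE 0.12, adjusted p = 0.00104). In the heat 2 of the 10 were higher in the mutant, beside 8.53% of all genes tested, among them AT5G05965 (1.50, SE 0.23, adjusted p = 0.000168).

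The 9 hormone genes covered several pathways. EFE encodes an ethylene-forming enzyme (ACC oxidase), ERS1 and ERS2 encode ethylene receptors, BEE3 a bHLH factor induced by brassinosteroid, BAS1 an enzyme that inactivates brassinosteroids, LAX1 an auxin influx carrier, AT1G76520 is annotated as an auxin efflux carrier family protein, and ABF1 encodes a bZIP factor that binds ABA response elements. CYP79B3 was described above. The other 8 fell at 2 h in the mutant and all 9 rose again from 2 to 4 h. ERS1 had 2495, 2444 and 2507 normalized counts in wild-type dark libraries, 384, 390 and 392 at 2 h, and 712, 847 and 792 at 4 h. EFE had 5120, 4375 and 4870, then 1383, 1519 and 1483, then 3223, 3858 and 3500. The receptor therefore recovered less of its dark level than the enzyme that makes the hormone. In the mutant ERS1 fell by 2.49 (SE 0.072, adjusted p = 1.85e-19) and rose by 0.91 (SE 0.073, adjusted p = 6.24e-10), and EFE fell by 1.63 (SE 0.080, adjusted p = 4.89e-15), rose again (adjusted p = 6.14e-11) and differed by -0.48 at 4 h from the dark (SE 0.077, adjusted p = 5.33e-06).

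Heat lowered 4 of the hormone genes and raised 1 in the wild type, against 5 and 3 in the mutant. ABF1 had 2013, 1849 and 1854 normalized counts in wild-type cold libraries and 616, 699 and 682 in the heat, a change of -1.52 (SE 0.080, adjusted p = 1.26e-10), and 1743, 1964 and 1842 against 658, 710 and 752 in the mutant, a change of -1.41 (SE 0.080, adjusted p = 2.55e-10). The genotypes overlapped in both conditions. CYP79B3 fell with heat by 1.19 in the wild type (SE 0.16, adjusted p = 1.22e-05) and by 1.26 in the mutant (SE 0.16, adjusted p = 6.71e-06). EFE had 6059, 5415 and 5505 in wild-type heat libraries and 8231, 8768 and 9853 in the mutant, a difference of 0.63 (SE 0.086, adjusted p = 4.58e-05). None of the 9 hormone genes was called different between genotypes in the cold, and 3 were higher in the mutant in the heat (EFE, ERS2 and AT1G76520).

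Among the 7 transcription factor and zinc finger genes, AT5G44260, a CCCH zinc finger protein, had the largest fall of the 100 genes in the mutant. It had 1354, 1148 and 1123 normalized counts in the dark, 25.1, 27.7 and 32.8 at 2 h, and 63.8, 60.5 and 62.6 at 4 h, a log2 change of -5.41 from the dark to 2 h (SE 0.12, adjusted p = 1.53e-21) and a rise of 1.15 (SE 0.17, adjusted p = 5.52e-06). In the wild type it had 1176, 1170 and 1125, then 21.3, 37.8 and 27.6, then 122, 118 and 109. These 4-h libraries were all above the mutant's, but they were among the ones that chose the gene. RAV1, which encodes an AP2/B3 factor, fell with heat in the wild type by 1.28 (SE 0.099, adjusted p = 1e-08) and in the mutant by 1.02 (SE 0.098, adjusted p = 1.24e-07). AT1G36060, annotated as an integrase-type DNA-binding protein, the domain of AP2/ERF factors, rose with heat in the wild type by 2.81 (SE 0.14, adjusted p = 2.69e-10) and in the mutant by 2.58 (SE 0.13, adjusted p = 2.67e-10). HSFA7A, a heat stress factor by name, did not rise at 27 °C: it had 360, 270 and 349 in wild-type cold libraries and 193, 249 and 228 in the heat, a change of -0.57 (SE 0.13, adjusted p = 0.00142).

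The 5 genes of the mixed plastid group had the fullest return in the mutant, with a median 4-h level of 93.2% of the dark level beside 88.3% in the wild type. UVR3, the (6-4) photolyase that repairs ultraviolet damage, had 447, 428 and 527 normalized counts in wild-type dark libraries and 165, 154 and 168 in mutant ones. At 2 h it had 139, 155 and 149 in the wild type and 121, 114 and 130 in the mutant, and at 4 h 362, 402 and 409 against 221, 224 and 199. Its dip in the mutant was the smallest of the 100 (a change of -0.42, SE 0.10, adjusted p = 0.000708), from a dark level well below that of the wild type. The wild-type dark libraries were among the ones that chose the gene. OEP16-1 encodes a channel of the outer plastid envelope. It had 2834, 2670 and 2823 in wild-type cold libraries and 642, 926 and 1047 in the heat, and 2123, 2367 and 1958 against 349, 629 and 500 in the mutant. It fell with heat by 1.67 in the wild type (SE 0.20, adjusted p = 2.57e-05) and by 2.16 in the mutant (SE 0.21, adjusted p = 4.06e-06), and was the gene called lower in the mutant in the heat (-0.86, SE 0.21, adjusted p = 0.0131), a call lost without replicate 3 of the wild-type heat (-0.68). Without replicate 1 of the wild-type heat, 3 of the 100 genes were called lower there.

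Other genes named by size had no group above. AT4G25580, annotated as a CAP160 protein, fell by 5.27 in the mutant (SE 0.11, adjusted p = 1.21e-21), from 6156, 5108 and 5311 normalized counts to 140, 146 and 144, and rose by 0.70 by 4 h (SE 0.12, adjusted p = 5.13e-05). AT2G17880, a DnaJ domain protein, had 404, 419 and 366 in wild-type dark libraries, 24.4, 20.4 and 22.3 at 2 h, and 183, 193 and 223 at 4 h, and rose in the mutant by 1.94 from 2 to 4 h (SE 0.15, adjusted p = 3e-10). STY46, a protein kinase, fell by 2.66 in the mutant (SE 0.083, adjusted p = 7.49e-19) and rose by 1.70 (SE 0.081, adjusted p = 1.32e-13). AT5G24490, annotated as a ribosomal protein, rose by 1.98 (SE 0.10, adjusted p = 8.81e-13). AT5G14470, annotated as a GHMP kinase family protein, had low counts in the heat shock experiment, with 22.2, 11.4 and 32.7 in wild-type cold libraries and 53.0, 53.8 and 53.7 in mutant ones, a difference of 1.12 (SE 0.24, adjusted p = 0.00407). In the heat it had 66.9, 98.6 and 84.3 in the wild type and 280, 282 and 322 in the mutant, a difference of 1.79 (SE 0.16, adjusted p = 2.6e-07), and it was the gene most raised in the mutant in the cold among those called.

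AT4G25580 was also called higher in the mutant in the heat, with 13.2, 33.5 and 42.6 normalized counts in the wild type and 49.8, 72.1 and 119 in the mutant (1.40, SE 0.42, adjusted p = 0.0354). The call was lost without replicate 2 or 3 of the mutant heat (1.46 and 0.98) or replicate 1 or 2 of the wild-type heat (1.05 and 1.49). AT3G43850, an uncharacterized protein, was higher in the mutant in the cold, with 79.8, 72.1 and 59.0 in the wild type and 116, 132 and 102 in the mutant (0.73, SE 0.18, adjusted p = 0.0116), and missed the threshold without replicate 2 of the mutant cold (0.65) or replicate 3 of the wild-type cold (0.59). With heat, AT1G50040, a putative formin-like protein, rose by 1.91 in the wild type (SE 0.20, adjusted p = 1.51e-06) and by 2.46 in the mutant (SE 0.19, adjusted p = 7.51e-08), and AT4G36850, a PQ-loop repeat protein, by 2.12 (SE 0.26, adjusted p = 6.84e-05) and 1.92 (SE 0.25, adjusted p = 9.31e-05). Both were thus raised by heat in either genotype.

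The difference of the heat responses between genotypes was called for 3 of the 100 genes, all with a higher response in the mutant, beside 0.488% of all genes tested, and for 0 in the other direction, beside 0.529%. By edgeR 19 of the 100 were higher and 5 lower at an unadjusted p under 0.05. No share of all genes tested is given for these counts, so no tendency is read from them. DESeq2 called 1 lower, and its count of higher genes is given in the last section. AT3G45730 had 454, 550 and 489 normalized counts in wild-type cold libraries and 474, 440 and 405 in the heat, against 395, 480 and 563 and then 780, 719 and 946 in the mutant. Only its mutant heat libraries stood apart, and the difference of responses was 0.92 (SE 0.18, adjusted p = 0.0208). AT1G76520 fell with heat in both genotypes, from 4163, 3559 and 3893 to 609, 692 and 736 in the wild type and from 2985, 3333 and 3514 to 856, 850 and 990 in the mutant, and the fall was smaller in the mutant by 0.63 (SE 0.13, adjusted p = 0.0296). For ALDH6B2 the difference was 0.54 (SE 0.12, adjusted p = 0.0375). These calls depended on single libraries: none of the 3 remained without replicate 2 of the mutant cold, replicate 3 of the wild-type cold or replicate 2 of the wild-type heat, 1 gene was called without replicate 1 of the mutant cold or replicate 3 of the mutant heat, and 5 were called without replicate 3 of the mutant cold.

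**Figure D4:**
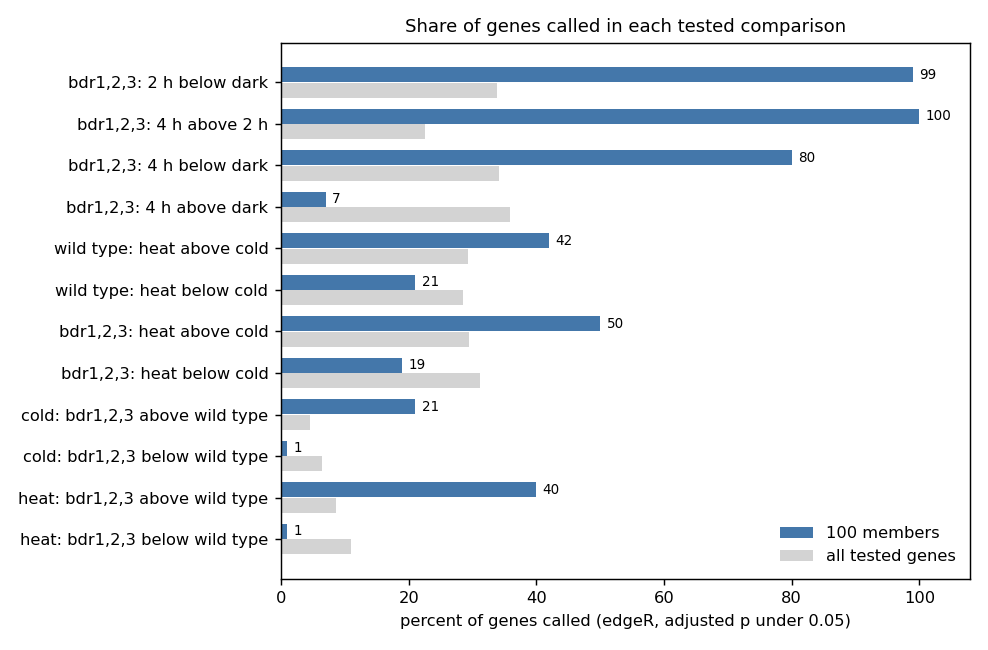
Percent of genes called at an adjusted p under 0.05 in 12 comparisons, with blue bars for the 100 genes and grey bars for all genes tested. In bdr1,2,3, 99 of the 100 were lower at 2 h against 33.8% of all genes tested, and 40 were higher than in the wild type in the heat against 8.53%.

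The chosen genes were compared with a list of sugar starvation genes. Of its 24 symbols 21 were matched and 19 were tested, and 8 of these are among the 100 genes (ASN1, SEN1, DIN10, BCAT-2, BT2, MCCA, MCCB and DIN2). Of the 11 that are not, 10 fell in bdr1,2,3 from the dark to 2 h, beside 33.8% of all genes tested. The other, PUB19, a U-box protein, rose by 2.26, and the median was -0.96. From 2 to 4 h 7 of the 11 rose, beside 22.5% of all genes tested, and 1 fell, with a median of 0.29. With heat 7 rose and 2 fell in the wild type, beside 29.3 and 28.5% of all genes tested. In the mutant 8 rose with heat, beside 29.4%. Between genotypes 2 of the 11 were higher in mutant cold samples and 4 in mutant heat samples, beside 4.57 and 8.53%. The bZIP1 and bZIP53 genes, whose products are known to activate ASN1, were listed at 0 in every library, and nothing can be read on them. Of the ethylene list, RAV1, EFE, ERS2 and ERS1 are among the 100 genes. Of its 22 other genes 16 fell at 2 h in the mutant, beside 33.8% of all genes tested, and 3 rose. From 2 to 4 h 4 of the 22 rose, beside 22.5% of all genes tested, and 6 fell. The return at 4 h was thus not common to that list. The lists of early auxin response, gibberellin, clock, touch and photosynthesis genes held none of the 100.

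The 100 genes were shorter and had fewer exons than the genes at the level minimum, with a median transcript of 1675 against 1813 bases and a median of 4 against 6 exons, and 16.0 against 9.7% had a single exon. Because BDR proteins are studied at the borders between neighbouring genes, the upstream neighbour was looked up. It was on the same strand for 43.0% of the 100 genes and 50.1% of the genes at the level minimum, and on the same strand within 600 bases for 16.0 and 23.3%. The median distance to it was 1499 against 805.5 bases. No test was made of these shares. The annotation has another counted gene overlapping 24 of the 100, 23 of them on the opposite strand and RMA1 on the same strand. Among these are ASN1, THA1, DIN10, BCAT-2, MCCA, DIN4, BCE2, STP1, XTH15, GAT1_2.1, ABF1 and ERS1. Whether counting used strand is not given in the sources used here, so for these genes reads of the partner cannot be told apart from the gene's own.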

How the data were processed

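RNA-seq was made from whole Arabidopsis seedlings in 30 libraries, 10 groups of 3, grouped by the sample titles. For both experiments the authors deposited raw counts of 33602 genes, together with normalized signal values, that is, counts over a size factor of the library. The submitters' processing notes name the TAIR10 genome, STAR 2.5.2b, SAMtools 1.3.1, featureCounts, R 3.3.2 and DESeq2 1.14.1. Libraries were stranded, and whether featureCounts used strand is not given in the sources used here.

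The deposited normalized counts were used for the selection and for the levels printed. The deposited raw counts were tested with edgeR 4.0.16 in R 4.3.3 (TMM, filterByExpr, glmQLFit with robust estimation, glmQLFTest), separately in each experiment, with one coefficient per group and all groups in the fit. Benjamini-Hochberg adjustment ran over all genes tested (19521 for photomorphogenesis, 19473 for heat shock), tests were two-sided, and genes were called at an adjusted p under 0.05. All 100 genes were tested in both. Fold changes are log2 values with their standard errors. No test was made of contrasts that used the wild-type photomorphogenesis libraries, which chose the genes. DESeq2 1.42.0, other normalizations, filters, list sizes and fits without each library were alternatives. Each fit was tested on simulated data.

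The genes and the gene lists were chosen with earlier results of these data known, and the functional groups were made after the genes were seen. Lists were corrected where a symbol named a different gene. The text names the 10 genes of highest score, the 5 on either side of the border of the list, for each tested contrast the 5 largest called rises and falls without overlap between the groups, the exceptions to the dip in the mutant, up to 4 genes per list and the most abundant genes, and other genes were added as examples of their functional group after their values were seen. Upstream sequences came from the TAIR10.1 reference, whose gene starts may differ from those of TAIR10, and motifs were searched as exact letters on both strands.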

Additional observations from a re-analysis of the deposited data

Results flagged for a closer look

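The response to heat differed between the genotypes, by a test of the difference itself (the interaction term of edgeR's quasi-likelihood fit), for 3 of the 100 genes. AT3G45730, an uncharacterized protein, changed by -0.17 on the log2 scale in the wild type (SE 0.13, adjusted p = 0.262) and rose by 0.75 in bdr1,2,3 (SE 0.12, adjusted p = 7.01e-05), a difference of 0.92 (SE 0.18, adjusted p = 0.0208). AT1G76520, annotated as an auxin efflux carrier family protein, fell by 2.51 in the wild type (SE 0.097, adjusted p = 6.33e-12) and by 1.89 in the mutant (SE 0.095, adjusted p = 7.95e-11), a difference of 0.63 (SE 0.13, adjusted p = 0.0296). ALDH6B2 fell by 0.29 in the wild type and rose by 0.26 in the mutant, a difference of 0.54 (SE 0.12, adjusted p = 0.0375). Leaving out 1 library took the call from AT3G45730 for 3 libraries, from AT1G76520 for 6 and from ALDH6B2 for 7.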

How the results depend on the processing

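Each count is of the 100 genes, or a percent of the list where its size was changed. Called lower in the wild type with heat were 32% of the top 200 genes and 10 genes at a fold of at least 1.5, in place of 21, and in the mutant 12% of the top 50, 30% of the top 200 and 11 at that fold, in place of 19. At that fold 2 genes were above the dark level at 4 h in the mutant (7 without it) and 9 were higher and 0 lower in the mutant in the cold (21 and 1 without it). With replicate number as a block, 32 were higher and 2 lower in the mutant in the cold, 2 were lower in the heat and 1 was lower for the difference of heat responses, in place of 21, 1, 1 and 0. No tested contrast had all 3 same-numbered pairs correlated above 0.1, so the numbers were not taken to pair the libraries. Outside the tested contrasts, mutant 4-h libraries had correlations of 0.63, 0.407 and 0.187 with wild-type 4-h libraries. With wild-type 2-h libraries they had 0.455, 0.149 and 0.127. The block moved no other count by over 1.5 times. Without both heat libraries numbered 1, an alternative chosen after seeing the data, 32 were higher and 3 lower in the cold. The count lower in the cold was 0 with DESeq2, with RLE size factors and in the top 50, 2 with the groups compared alone in the fit, and 4.5% in the top 200, and the count lower in the heat was 0 with those groups alone and in the top 50, and 6.5% in the top 200. With DESeq2 the difference of heat responses was called for 6 genes in place of 3 and in the other direction for 1 in place of 0. When 1 library was left out, genes lower at 2 h in the mutant numbered 99 each time, higher from 2 to 4 h 98 to 100, both 97 to 99, and at 4 h 79 to 82 were below and 7 to 9 above the dark level. With heat 38 to 48 were higher and 20 to 21 lower in the wild type, and 45 to 52 and 16 to 20 in the mutant. Between genotypes 12 to 19 were higher and 0 to 1 lower in the cold, and 31 to 43 and 0 to 3 in the heat. The difference of heat responses was called for 0 to 5 genes, and for 0 to 1 in the other direction. Of the 100 genes, 91 to 98 stayed on the list without 1 wild-type library, 99 with TMM-scaled counts, 94 and 86 with 1 or 50 added in place of 10, 89 and 82 with a level minimum of 50 or 200, and 93 with group medians. No count or named gene changed direction. The causes of these shifts were not tested.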
